A study of Mus musculus with 30 samples.

Results

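The acute phase genes described here are Saa1, Saa2, Saa3, Lrg1, Hp, Orm1, C3 and Cp, 8 genes listed for their known membership of the acute phase response with their log2 ratios in these tumours already in view. Probes annotated to 1 of these symbols were taken, which gave 7 probes for 7 of the 8 genes, out of 22800 probes for 15096 genes. All 7 had enough values to enter the tests, which covered 12888 probes. C3 was not analysed here. Because the choice of genes drew on these ratios, their levels and spread are given as a description, and no p-value is used in support of them.

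The samples were 15 RNA extracts of mammary carcinomas that arose in c-Myc transgenic mice. Each was hybridised against the same reference RNA on a pair of arrays, once in each channel, which gave 30 arrays. Extracts are named by the number and letter of their code: 540-B, 546-A, 546-B, 547-A, 548-A, 550-A, 561-B, 567-B, 579-A, 579-B, 579-D, 579-E, 579-F, 595-A and 597-B. The arrays of 550-A and 561-B were described under tumour progression, those of 12 further extracts under epithelial to mesenchymal transition (EMT), and 595-A had 1 array under each. The labels give no strain, age or treatment, no promoter for the transgene and no composition for the reference, and do not give the number of animals behind the extracts. P-values from extract means therefore describe the spread between extracts alone, part of which may be technical. Those of the test for differences between extracts set these differences against the difference between paired arrays.

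The values are log2 ratios of extract and reference, turned so that all arrays ran the same way. The Myc probe was then positive in all 15 extracts, from 2.38 to 3.68, with a mean of 3.16 ± 0.11 (SE, n = 15). The labels do not say which channel was divided by which. The positive side is called the Myc side, and high and low mean toward it and away from it. Since the tumours carry extra Myc, this is likely the side of higher levels in the extracts, but that is no proof, and a turned ratio would exchange all directions. All 9 tested markers of milk and alveolar epithelium passed on the Myc side, with 30.4% of all probes doing so, for instance Csn2, the beta-casein gene, at 5.17 ± 0.76 and Csn3 at 6.29 ± 0.41. Arrays held 13434 to 21991 measured probes. The thinnest extracts were 546-A and 548-A, where 4021 and 3000 tested probes rested on 1 array.

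Acute phase proteins are plasma and secretory proteins whose production changes during infection, injury and inflammation. Interleukin-6 family cytokines act on them through gp130 and STAT3, interleukin-1 and tumour necrosis factor act through NF-kB, and C/EBP factors and glucocorticoids work on many of the same promoters. The liver is their main source, but Saa3, Lcn2, Ltf and others are also made by epithelia, and the mammary gland produces several of them around involution and in mastitis. Saa1 and Saa2 encode the inducible serum amyloid A apolipoproteins of high density lipoprotein. Saa3 encodes a form made mainly outside the liver.

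The serum amyloid A genes lie together on mouse chromosome 7, in the order Saa3, Saa4, Saa-ps, Saa1 and Saa2 with a predicted gene between Saa3 and Saa4. Their promoters are shown because Saa1 and Saa2 shared nearly the same upstream bases but differed in their ratios to the reference. Saa3, with other upstream bases, followed Saa1 across extracts. The composition of the reference is not known, so a difference in ratio between genes need not be a difference in transcript level. The sequences are the 250 bases before each start site from RefSeq, build GRCm38.p6, read 5′ to 3′ along the gene: Saa1 at chr7:46742981-46743230 on the minus strand, Saa2 at chr7:46751583-46751832 on the plus strand and Saa3 at chr7:46715677-46715926 on the minus strand. Capitals mark matches on either strand to TTNNGNAA, a reduced form of the C/EBP site.
Saa1: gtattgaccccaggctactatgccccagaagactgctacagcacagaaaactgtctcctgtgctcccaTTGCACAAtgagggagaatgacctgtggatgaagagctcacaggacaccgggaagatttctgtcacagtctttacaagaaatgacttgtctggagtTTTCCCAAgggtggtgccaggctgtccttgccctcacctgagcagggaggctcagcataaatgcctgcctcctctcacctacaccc
Saa2: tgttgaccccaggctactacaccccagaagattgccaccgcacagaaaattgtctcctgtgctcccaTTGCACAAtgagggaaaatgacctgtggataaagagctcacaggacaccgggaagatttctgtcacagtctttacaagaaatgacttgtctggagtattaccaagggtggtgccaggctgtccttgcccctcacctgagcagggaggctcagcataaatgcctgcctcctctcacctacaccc
Saa3: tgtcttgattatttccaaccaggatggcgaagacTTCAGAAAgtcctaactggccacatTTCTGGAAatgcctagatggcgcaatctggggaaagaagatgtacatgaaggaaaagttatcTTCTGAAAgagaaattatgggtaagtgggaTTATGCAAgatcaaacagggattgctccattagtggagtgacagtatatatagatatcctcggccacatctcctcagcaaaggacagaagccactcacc

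The Saa1 and Saa2 sequences were identical at 238 of 251 aligned columns, 94.8%, whereas Saa3 shared 48.5% of aligned columns with Saa1 and 47.8% with Saa2. TTNNGNAA occurred 2 times in the Saa1 window, 1 time in Saa2 and 4 times in Saa3, and 36.8% of all 32851 promoter windows of that length held it. An NF-kB-like pattern, GGNNTTTCC, occurred 1 time in Saa3, overlapping a TTNNGNAA match, and 0 times in Saa1 and Saa2, against 4.93% of all windows. Longer forms of this pattern were not searched, so 0 matches do not show that such a site is missing. Saa1 holds GGAGTTTTCC, with 1 base more between GG and TTTCC than the pattern, where Saa2 reads GGAGTATTAC. A STAT-like pattern, TTCNNNGAA, occurred 0 times, against 7.02% of all windows. The patterns were chosen after the sequences had been seen, both strands were searched, and a match or its lack is a description of these letters only. Hp and Orm1 had no entry in the promoter table. The letters of the array probes were not used here, so how far the Saa1 and Saa2 probes also bind the other transcript was not tested, and values of this pair are uncertain in that respect.

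Saa1 had the largest spread of all 12888 tested probes across the carcinomas, with an SD of 3.47 log2 units between extracts, where the median probe had 0.62. Its log2 ratio was lowest in 548-A at -1.71, had a median of 4.24 and was highest in 579-A at 7.80, a range of 9.51. Its mean of 3.60 ± 0.81 (SE, n = 15) is a 12.1-fold difference from the reference on the Myc side. Saa1 was positive in 12 extracts and negative in 3, which were 548-A, 579-E at -0.86 and 595-A at -1.24. Paired arrays disagreed in sign in 579-E, at -2.12 and 0.40, and in 579-D, at -1.26 and 1.27. At the top, 4 extracts stood close together: 579-A at 7.80, 579-B at 7.69, 547-A at 7.67 and 561-B at 7.62. The next value below them was 5.50 in 550-A. The value of 595-A rested on 1 array, since its other array held a placeholder, and that of 546-A at 5.16 also rested on 1 array.

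Saa2 lay at other ratios to the reference than its neighbour. It had its lowest log2 ratio in 548-A at -5.20, a median of -0.15 and its highest in 579-A at 1.13. With a mean of -0.89 ± 0.45 it was positive in 6 extracts and negative in 9. Its low values belonged to a few extracts, 548-A, 579-D at -4.41 and 597-B at -2.62, and 546-B followed at -2.02. The other 11 extracts lay between -1.09 and 1.13.

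Saa3 was mostly on the opposite side, in 11 of 15 extracts. It ranged from -5.61 in 595-A, with a median of -2.03, to 0.82 in 579-B, and averaged -1.57 ± 0.43. The 4 extracts on the Myc side were 579-B, 561-B at 0.77, 579-A at 0.76 and 547-A at 0.65. These are the same 4 extracts that were highest in Saa1, and they were also the 4 highest in Saa2. With array medians subtracted they remained the 4 highest in Saa1 and Saa3, and 3 of them in Saa2, where 561-B stood at -0.01. On the arrays with the extract in channel 2, 3 of them were among the 4 highest for Saa2 and for Saa3.

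**Figure D1:**
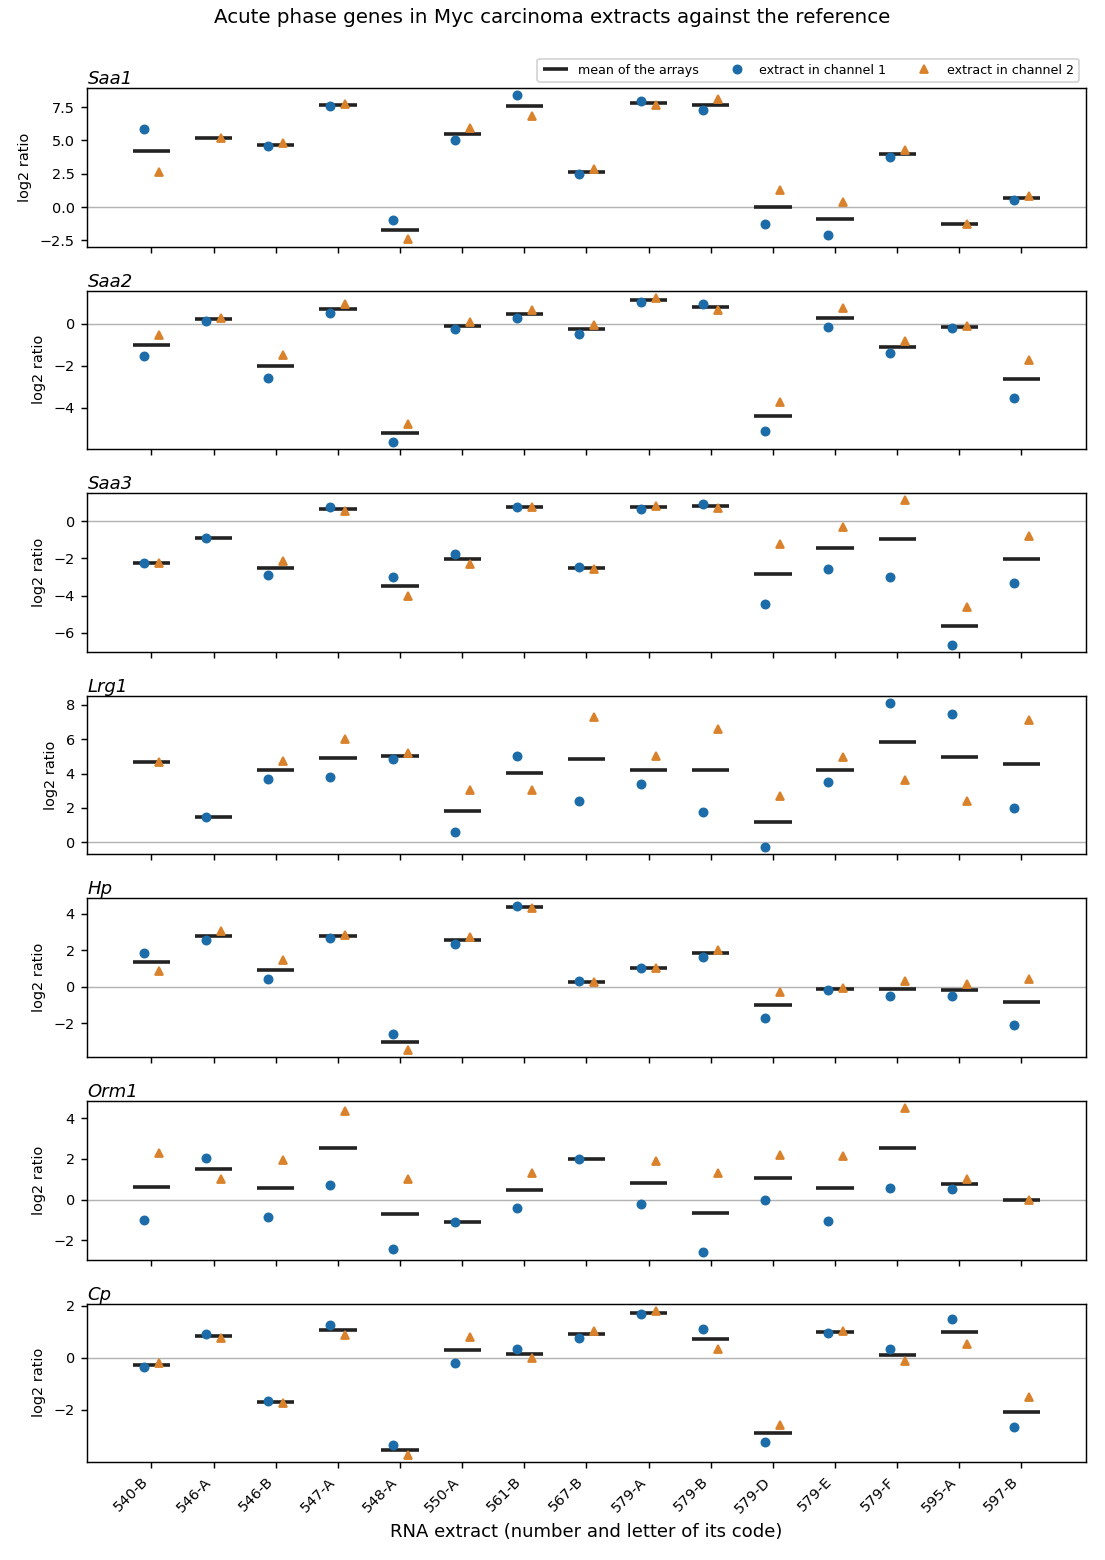
Log2 ratio to the reference of each acute phase gene (vertical axis, own scale per panel) in each of the 15 extracts, with bars for the mean and points for the array with the extract in channel 1 (circles) and in channel 2 (triangles). Saa1 runs from -1.71 to 7.80, Lrg1 bars are all above 0, and the low Saa2, Hp and Cp bars of 548-A, 579-D and 597-B stand together.

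Of the other genes of the cluster, Saa4, which encodes a constitutive form, averaged 0.23 ± 0.27 and did not pass against the reference (limma adjusted p = 0.517). Its side depended on the channel, at a mean of -0.74 with the extract in channel 1 and 1.51 in channel 2. Another Saa4 probe, not kept for the tests, averaged -0.46. The pseudogene Saa-ps averaged -0.41 ± 0.17 and ran from -1.88 to 0.31 (limma adjusted p = 0.0555). Neither passed the test for differences between extracts, with limma adjusted p = 0.958 for Saa4 and 0.326 for Saa-ps.

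Lrg1 encodes a secreted leucine-rich glycoprotein that is induced by interleukin-6 and acts on TGF-beta signalling in endothelium. It was the acute phase gene farthest from the reference and lay on the Myc side in all 15 extracts, as did 7.95% of all probes. The lowest log2 ratio was 1.20 in 579-D, the median 4.22 and the highest 5.86 in 579-F, with a mean of 4.01 ± 0.33, a 16.1-fold difference. Its arrays disagreed more than those of the other members except Orm1, by a median of 2.45 log2 units between paired arrays. In 597-B the array with the extract in channel 1 gave 1.98 and the other 7.12, while in 579-F they gave 8.10 and 3.62. The order of the extracts in Lrg1 therefore cannot be read from these arrays, whereas 27 of its 28 measured arrays were on the Myc side, the exception being -0.27 in 579-D.

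Hp encodes haptoglobin, which binds free haemoglobin. Its log2 ratio was lowest in 548-A at -3.02, had a median of 0.93 and was highest in 561-B at 4.36, with a mean of 0.83 ± 0.44. It was on the Myc side in 9 extracts and opposite in 6. After 561-B came 546-A at 2.79, 547-A at 2.75 and 550-A at 2.54, and the 2 extracts described under tumour progression were thus both among the 4 highest.

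Cp encodes ceruloplasmin, a copper-carrying ferroxidase. It ran from -3.54 in 548-A, with a median of 0.29, to 1.74 in 579-A and averaged -0.18 ± 0.38. The low end held 548-A, 579-D at -2.89, 597-B at -2.07 and 546-B at -1.70, and the other 11 extracts lay between -0.28 and 1.74.

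Orm1 encodes orosomucoid, also called alpha-1-acid glycoprotein, a binder of drugs and lipids. Its log2 ratio was lowest in 550-A at -1.11, had a median of 0.64 and was highest in 579-F at 2.54, with a mean of 0.74 ± 0.26. The side depended on the channel: arrays with the extract in channel 1 averaged -0.27 and those with it in channel 2 averaged 1.92. Of 12 extracts with both arrays, 8 had opposite signs on them or a value of 0 on 1. Of its values, 59.3% matched, at 3 decimals, log2 of one whole number over another, neither above 20, as dim spots could give, where the share over all probes was 33.6%. No level or order is read from Orm1.

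By limma on the extract means, 3 of the 7 acute phase probes passed on the Myc side (Saa1, Lrg1 and Orm1), as did 30.4% of all probes, and Saa3 passed as 1 on the opposite side, as did 16.9%. The other 3 (Saa2, Hp and Cp) passed in neither direction, where 47.2% of all probes passed in one or the other. Orm1 no longer passed with array medians subtracted, at a mean of 0.59 and a limma adjusted p = 0.0788. Because the genes were chosen on these ratios, nothing is read from this count. The reference was a single RNA, whose own variation does not enter these errors.

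**Figure D2:**
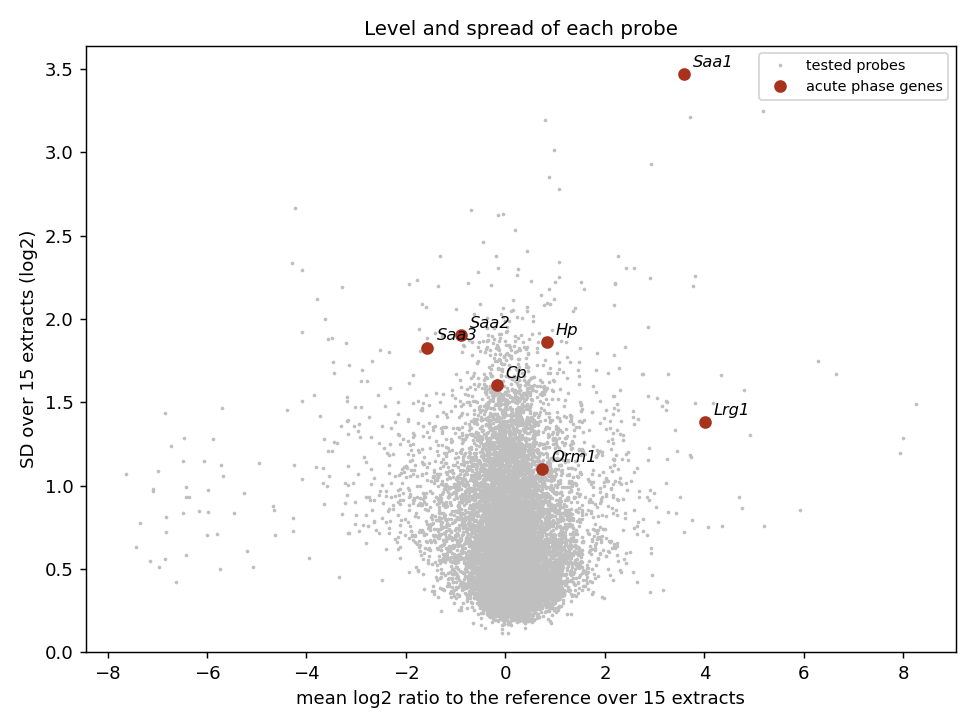
Each point is 1 tested probe, with its mean log2 ratio to the reference over 15 extracts on the horizontal axis and its SD over the extracts on the vertical axis, and acute phase genes are marked. Saa1 is the highest point at an SD of 3.47, Lrg1 lies at a mean of 4.01 with an SD of 1.38, and Saa2, Saa3, Hp and Cp have SDs of 1.60 to 1.90 at means between -1.57 and 0.83.

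Paired arrays of 1 extract show how much of this spread was array noise. Over all probes the median difference between paired arrays was 0.81 log2 units and the median correlation of paired arrays over extracts was 0.12. Correlated over probes, arrays of different extracts gave a median r of 0.557 within channel 1 and 0.572 within channel 2. Paired arrays of the same extract gave 0.199, so arrays were more alike by channel than by extract. Saa2 gave a Pearson r of 0.978 between paired arrays, Cp 0.938, Saa1 0.909, Hp 0.901 and Saa3 0.708. For Orm1 the r was 0.288 and for Lrg1 -0.261. In limma's F-test for differences between extracts beyond the difference of paired arrays, 5 of the 7 passed (Saa1, Saa2, Saa3, Hp and Cp) and Lrg1 and Orm1 did not, where 6.73% of all probes passed. This count also uses the ratios on which the genes were chosen. Saa3 did not pass without a dye term for each probe, at a limma adjusted p = 0.0689. Its paired arrays differed most in 579-F, at -3.01 and 1.13.

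**Figure D3:**
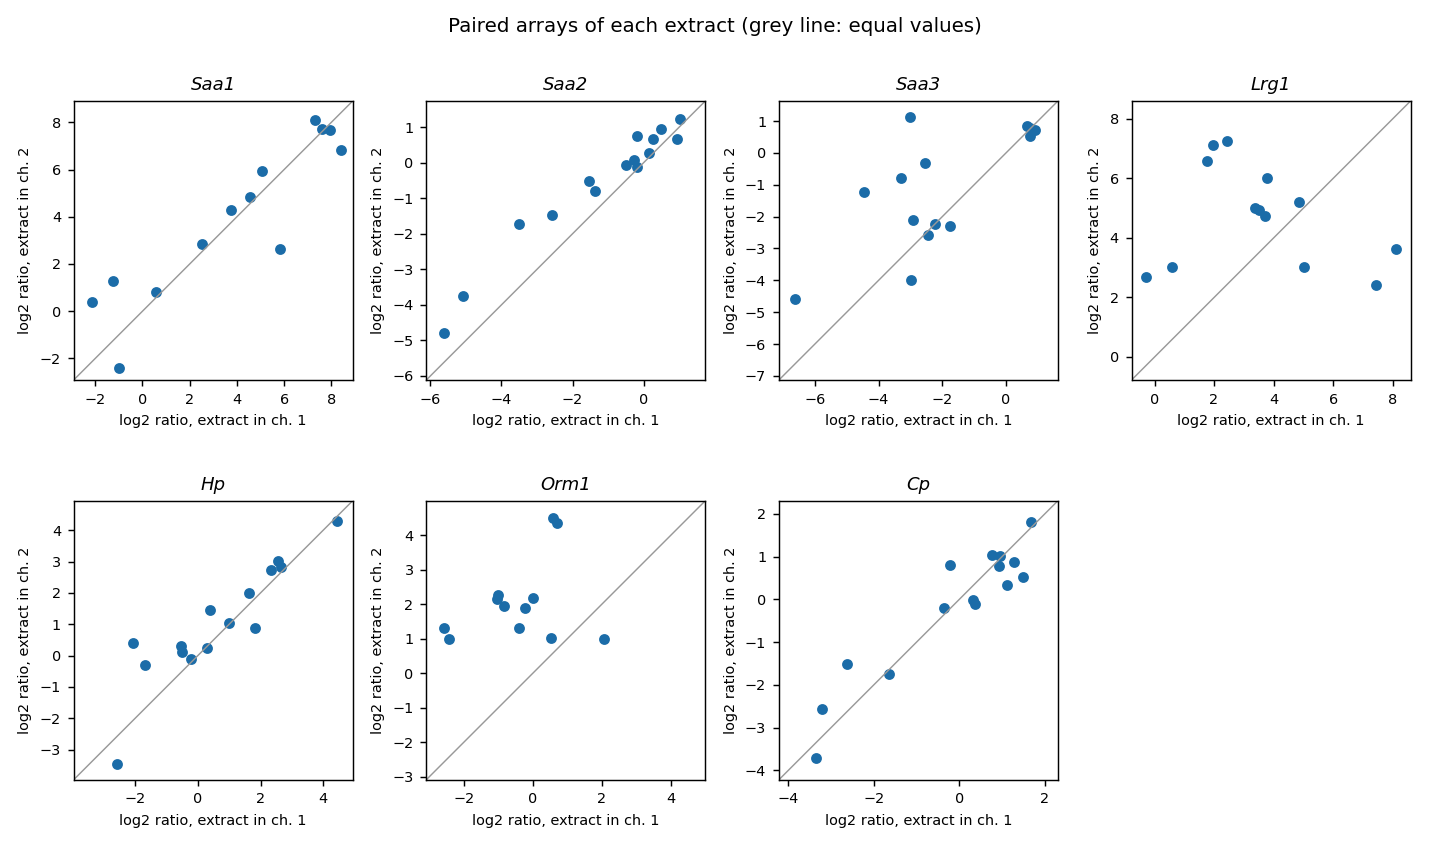
Each point is 1 extract, with the log2 ratio on the array with the extract in channel 1 on the horizontal axis and in channel 2 on the vertical axis, 1 panel per gene, and the grey line marks equal values. Points of Saa1, Saa2, Hp and Cp follow the line, with r from 0.901 to 0.978, while those of Lrg1 and Orm1 scatter away from it.

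The 7 genes fell into patterns across extracts that were not the same for all. Correlations are given over the 15 extracts as a description of 21 pairs. The points share the reference RNA and the arrays, 5 of the extracts share the number 579 and 2 share 546, and in RNA from whole tissue fewer cells of a type and less RNA per cell cannot be told apart.

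Saa1 and Hp tended to be high together, although only 2 of the 4 extracts highest in Saa1 were among the 4 highest in Hp, with a Pearson r of 0.829 and a Spearman rho of 0.832. The r was 0.789 without the 2 extracts farthest from the Saa1 median, 0.838 on the arrays with the extract in channel 1, 0.808 on those with it in channel 2 and 0.921 without the 579 extracts. Leaving out the 4 extracts highest in Saa1, it was 0.834 over the other 11. Within the 4 highest the genes parted: at nearly equal Saa1 ratios, Hp was 4.36 in 561-B, 2.75 in 547-A, 1.81 in 579-B and 1.02 in 579-A.

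Saa1 and Saa3 gave a Pearson r of 0.822 and a Spearman rho of 0.818, and 0.754 without the 2 farthest extracts. The 4 extracts highest in Saa1 stood apart in this pair, and the r over the other 11 was 0.578. In 595-A Saa3 was at its lowest, at -6.63 and -4.60 on the paired arrays, whereas Saa2 lay at -0.15 and Cp at 1.00. The 3 Saa genes thus shared their 4 highest extracts. At the low end 548-A and 579-D were among the 4 lowest in all 3 genes, whereas 595-A was low in Saa1 and Saa3 and not in Saa2.

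Saa2 followed Cp more closely than Saa1. The pair gave a Pearson r of 0.965 and a Spearman rho of 0.829, and 0 of the other tested probes had a higher r to Saa2. Without the 2 extracts farthest from the Saa2 median the r was 0.916, and without 548-A, 579-D and 597-B it was 0.859 over 12 extracts. For Saa1 and Saa2 the r was 0.651 with a rho of 0.739, and without those 3 extracts it was 0.330. Saa1 with Cp had 0.517 over all extracts and -0.02 without the 3, and Hp with Cp had 0.605 and -0.05. Saa2 with Hp had 0.747 and 0.361, so that these 4 relations rested largely on the 3 extracts.

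These 3 extracts are also the ones in which Fgfr2, the gene of a fibroblast growth factor receptor, was high, with log2 ratios of 7.13 in 548-A, 6.99 in 597-B and 5.93 in 579-D, against at most 0.91 in the other 12. They held the 3 lowest values of Saa2, of Cp and of Hp. Saa1 was -1.71 in 548-A, 0.01 in 579-D and 0.69 in 597-B, which puts it low there too, but 595-A and 579-E were lower than 579-D and 597-B. With array medians subtracted the 3 lowest values of Saa2, Cp and Hp were still in these extracts. On the arrays with the extract in channel 2 this held for Saa2, while Hp in 597-B stood at 0.41 there and 2 of the 3 were among the lowest for Hp and for Cp.

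**Figure D4:**
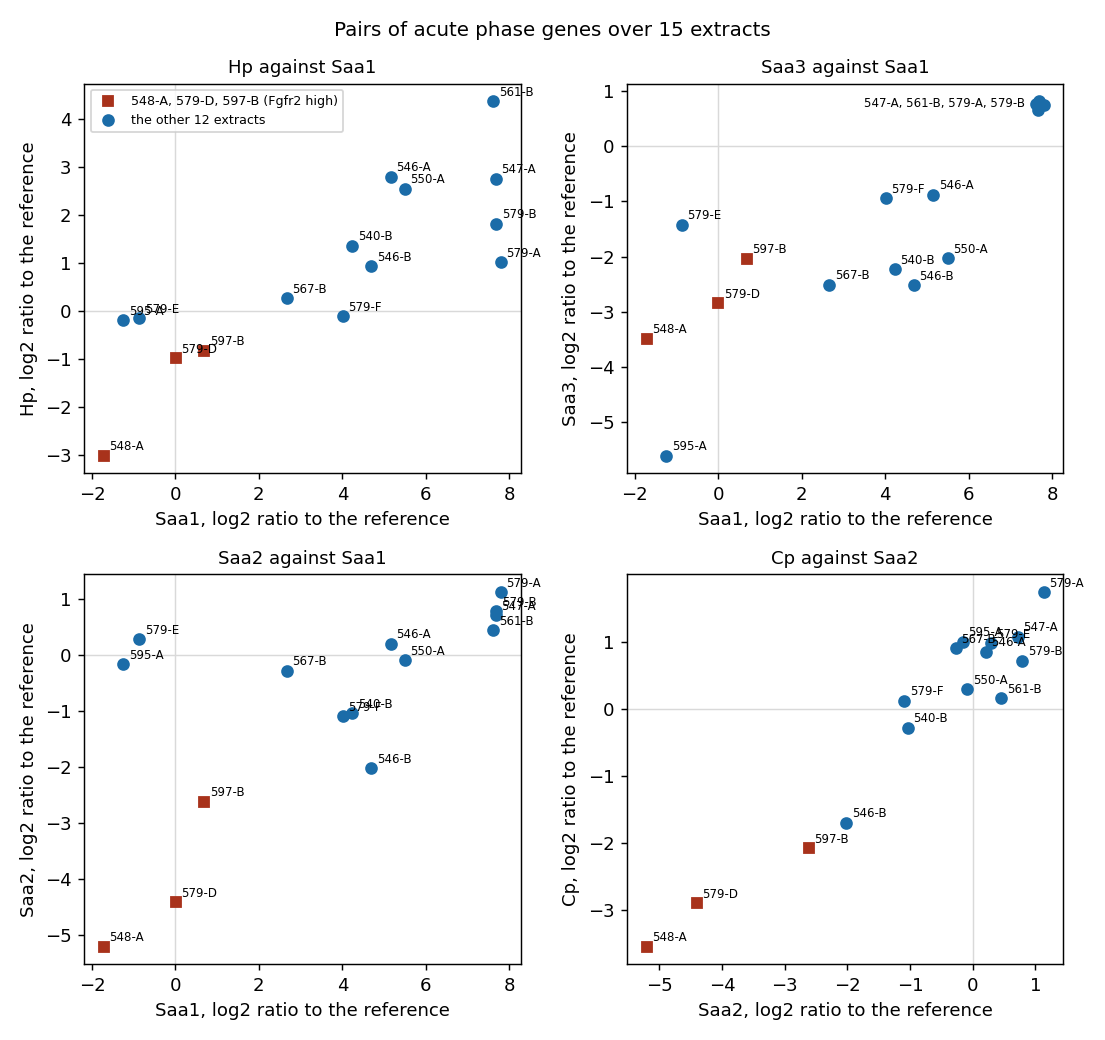
Log2 ratios to the reference of pairs of acute phase genes, 1 point per extract, with red squares for 548-A, 579-D and 597-B and blue circles for the other 12 extracts. Hp and Saa3 tend to be higher where Saa1 is higher, the 4 extracts with Saa1 from 7.62 to 7.80 stand apart for Saa3, and Cp follows Saa2 with the squares at the low end.

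Counting over the 5 genes whose paired arrays kept an order (all but Lrg1 and Orm1), 548-A and 579-D were each among the 4 lowest extracts in 5 of 5. 547-A was among the 4 highest in 5 of 5, and 579-A and 561-B in 4 each. Lrg1 gave r between -0.26 and 0.23 with the other 6 genes and Orm1 between 0.12 and 0.34.

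Number 579 shows how far extracts of 1 number can differ. Saa1 was 7.80 in 579-A, 7.69 in 579-B, 0.01 in 579-D, -0.86 in 579-E and 4.02 in 579-F, which nearly spans the range of the other 10 extracts, -1.71 to 7.67. Saa2 in the same order was 1.13, 0.79, -4.41, 0.29 and -1.09. Cp was 1.74, 0.72, -2.89, 0.98 and 0.12, and Hp was 1.02, 1.81, -0.99, -0.15 and -0.12. 579-E therefore combined a low Saa1 with Saa2 and Cp near or above the reference, and 579-D was low in all 4 genes. The pair of number 546 had Saa1 at 5.16 in 546-A and 4.70 in 546-B, but Saa2 at 0.21 and -2.02 and Cp at 0.85 and -1.70.

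The 579 extracts as a group overlapped the other numbers in each of the 7 genes. Saa1 averaged 3.73 ± 4.10 in 579 extracts (SD, n = 5) and 3.53 ± 3.35 in the others (SD, n = 10). The differences, 579 minus others, ran from -0.78 ± 0.94 (SE) for Hp to 1.26 ± 0.89 for Saa3. By limma 0 of the 7 passed, with 0.0% of all 12888 probes called, so a group difference was not detectable at this spread. An unadjusted limma p under 0.05 was found for 460 probes, fewer than the 5% that no difference would give on average.

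The extracts described under tumour progression had Saa1 at 5.50 in 550-A and 7.62 in 561-B, and the 12 EMT extracts ran from -1.71 to 7.80 with a median of 4.13. Hp was 2.54 and 4.36 in the progression extracts, against -3.02 to 2.79 in the EMT extracts, with a median of 0.60. The difference in Hp was 2.97 ± 1.13 log2 units (SE) and that in Saa1 was 3.05 ± 2.22, and neither passed (limma adjusted p = 0.99995 for each). In Hp, 2 of the EMT extracts, 546-A and 547-A, lay above 550-A, so the groups overlapped. With only 2 progression extracts these values rested on each of them: without 550-A the difference was 4.11 in Saa1 and 3.88 in Hp, and without 561-B it was 1.99 and 2.06, in fits where the lone extract is assumed to vary like the EMT extracts. Of all probes, 0.00776% were called, which is 1 probe, 4930404H24Rik, lower in the progression extracts by -3.26 ± 0.46 (limma adjusted p = 0.0405) and named because it was the one called. An unadjusted limma p under 0.05 was found for 525 probes, also fewer than the 5% that no difference would give on average.

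Other proteins of the response gave a mixed picture against the reference. These lists were drawn up with earlier results of these arrays known and describe the surroundings of the 7 genes. Each count is to be read against the shares over all probes, 30.4% passing high and 16.9% low. Of 18 tested acute phase proteins that rise in inflammation, 8 passed on the Myc side, only Ptx3 passed on the other and 9 passed on neither, with a median of 0.35 where all probes had 0.13. Lcn2, which encodes lipocalin 2, a binder of bacterial siderophores, was the farthest at 5.93 ± 0.21, from 4.07 in 579-D to 7.25 in 546-A. The value in 546-A rested on a single array. Ltf, the lactoferrin gene, averaged 3.78 ± 0.52, the LPS-binding protein gene Lbp 1.59 ± 0.28 and the calprotectin subunit gene S100a9 1.49 ± 0.15. The long pentraxin gene Ptx3 was on the opposite side at -2.15 ± 0.31.

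Lcn2 was therefore as one-sided as Lrg1, but unlike Saa1 it stayed within a few log2 units across extracts and did not pass the F-test (limma adjusted p = 0.327). Of the 18, 5 passed that test, where 6.73% of all probes did, and Ltf had the widest spread, from -1.70 in 548-A to 7.41 in 579-E. Slpi, the gene of a leukocyte protease inhibitor, ran from -3.24 in 579-D to 2.30 in 550-A, and Pigr, the polymeric immunoglobulin receptor gene, had an SD of 1.81. The mean of the 18 genes per extract gave r of 0.559 with Saa1, 0.769 with Hp and 0.864 with Saa2. It was lowest in 548-A, at -0.46, where Saa1, Hp and Saa2 were lowest too. How far these r rested on that extract was not tested.

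Acute phase proteins that fall in inflammation did not share a direction: of 8 tested, 2 passed in each direction and 4 in neither, with a median of -0.03. Trf, the transferrin gene, lay at 6.65 ± 0.39 on the probe used here. The albumin gene Alb was at 0.37 ± 0.13 and did not pass with array medians subtracted (limma adjusted p = 0.158). The coagulation factor gene F12 averaged -1.36 ± 0.17 and the fetuin gene Ahsg -1.19 ± 0.32.

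Of 13 tested complement genes, 8 passed toward the Myc side, 1 passed away from it and 4 in neither direction, where 30.4% and 16.9% of all probes passed, with a median of 0.64. C1qc and C1qa, which encode chains of the recognition protein C1q, averaged 2.91 ± 0.23 and 1.66 ± 0.13. C1qb also passed on the Myc side, but averaged -0.65 with the extract in channel 1 and 1.77 in channel 2. Clu, the clusterin gene, averaged 2.18 ± 0.42 and the factor B gene Cfb 1.83 ± 0.37. C1ra, which encodes a C1 protease, was on the opposite side at -1.27 ± 0.18. Clu and Serping1, the C1 inhibitor gene, were the 2 that passed the F-test.

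The signalling genes upstream of the response divided between the sides. Of 19 tested genes of the interleukin-6 family, STAT3 and its feedback, 4 passed toward the Myc side, 7 away from it and 8 in neither direction, where all probes gave 30.4% and 16.9%, with a median of -0.12. The factor genes Stat5a, Bcl3 and Stat3 averaged 1.21 ± 0.18, 1.19 ± 0.14 and 1.17 ± 0.12. The shared receptor chain gene Il6st, which encodes gp130, averaged -1.41 ± 0.14, the oncostatin M receptor gene Osmr -1.24 ± 0.28 and the STAT target Pim1 -1.12 ± 0.16. Il6 itself did not pass, and Socs3, the feedback inhibitor, averaged -0.40 ± 0.18 without passing (limma adjusted p = 0.0860), but passed with array medians subtracted (limma adjusted p = 0.0337). The list mean gave an r of 0.005 with Saa1 over extracts.

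Of 22 tested genes of interleukin-1, TNF and NF-kB signalling, 7 passed high, 9 low and 6 in neither direction, with a median of -0.06. The high share was thus near the 30.4% of all probes, and the low share was above their 16.9%. The kinase gene Ikbkb averaged 1.18 ± 0.11 and the adaptor gene Myd88 0.75 ± 0.13. The 4 with the largest low values are known NF-kB targets: the adhesion molecule gene Vcam1 lay at -2.57 ± 0.36, the neutrophil chemokine genes Cxcl1 at -2.12 ± 0.22 and Cxcl5 at -1.91 ± 0.25, and the monocyte chemokine gene Ccl2 at -1.71 ± 0.15.

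Of 12 tested C/EBP and glucocorticoid genes, 4 passed high, 1 low and 7 in neither direction, with a median of 0.11, shares near or below the 30.4% and 16.9% of all probes. Cebpa averaged 1.81 ± 0.12 and Cebpb 1.41 ± 0.11. Ddit3, which encodes the C/EBP partner CHOP, averaged -2.17 ± 0.17. The glucocorticoid receptor gene Nr3c1 had 2 probes that disagreed, at 1.09 and -0.90. Cebpd, a gene that acute phase signals induce, did not pass against the reference but was the 1 gene of the list that passed the F-test, with a limma adjusted p = 0.0040.

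Receptors and partners of the acute phase proteins gave 7 high, 6 low and 2 uncalled genes of 15 tested, against 30.4% high and 16.9% low over all probes, with a median of 0.30. Ly96, which encodes the LPS co-receptor MD-2, averaged 2.64 ± 0.12, the transferrin receptor gene Tfrc 1.81 ± 0.16 and the ferroxidase gene Heph, a relative of Cp, 1.45 ± 0.19. The receptor gene Lrp1 averaged -1.37 ± 0.26 and the ferritin heavy chain gene Fth1 -1.26 ± 0.14.

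Markers of cell types that can make such transcripts were set beside the 7 genes, and over all probes 30.4% passed high and 16.9% low. Of 6 tested hepatocyte markers 2 passed high and 1 low, about the shares of all probes, and their mean per extract, from -1.43 in 546-A to 0.91 in 595-A, gave an r of 0.134 with Saa1. Of 13 macrophage markers 9 passed high and 2 low, their mean ran from -0.28 in 579-D to 1.16 in 546-A, and the r was 0.675 with Saa1 and 0.730 with Hp. Of 9 neutrophil markers 4 passed high and 0 low, and their mean ran from -0.49 in 548-A to 1.32 in 561-B. Camp, 1 of these 4, averaged -1.05 with the extract in channel 1 and 2.01 in channel 2. The list mean gave an r of 0.561 with Saa1, 0.807 with Hp and 0.808 with Saa2. Its lowest extract, 548-A, was also the lowest in these 3 genes, and r without it was not computed. Some genes stand on more than 1 list, so the counts of these lists are not separate observations. Ltf, S100a8 and S100a9 are on both the neutrophil list and that of the rising acute phase proteins. Cd14 is on the rising and macrophage lists, C1qa, C1qb and C1qc are on the complement and macrophage lists, and Alb, Ttr and Ahsg are on the falling and hepatocyte lists.

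Of 12 fibroblast and matrix markers 1 passed high and 7 low, with a list mean from -2.52 in 579-D to 0.96 in 546-A and an r of 0.489 with Saa1 and 0.641 with Hp. Of 10 adipocyte markers 4 passed high and 1 low, of 7 endothelial markers 7 passed high, and the r with Saa1 was 0.428 for the adipocyte list, 0.438 for the endothelial list and 0.322 for the milk list. The part of these cell types in the acute phase values was not tested. Ratios to a reference have no true zero, so the lists cannot show that a cell type was absent.

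Among genes outside the 7, those whose pattern over the 15 extracts was most like that of Saa1 were Gclm, the gene of a glutathione synthesis subunit, at a Pearson r of 0.866, Pramel3 at 0.853, Xpo7 at 0.807, Mpeg1 at 0.805, Max at 0.786, the mucin gene Muc4 at 0.784, Actr1a at 0.779 and Prmt5 at 0.779. Hp and Saa3, at 0.829 and 0.822, came between Pramel3 and Xpo7. None of these 8 passed the F-test, with limma adjusted p from 0.270 for Gclm to 0.992 for Pramel3, so their own order over extracts was not shown to be beyond array noise. For Hp the list outside the 7 was Npepps at 0.896, Nrep at 0.877, Plp2 at 0.849, Pla2g7 at 0.847, Prmt5 at 0.845, Wdr1 at 0.839, Tmub1 at 0.827 and Max at 0.823, with Saa1 at 0.829 just above Tmub1. None of these passed the F-test either, with limma adjusted p from 0.0560 for Npepps to 0.591 for Prmt5. For Lrg1 the 8 highest r ran from 0.836 to 0.881, but since its order over extracts cannot be read and none of the 8 passed the F-test, with limma adjusted p from 0.0786 to 0.886, these genes are not named.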

How the data were processed

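The authors deposited 1 log2 channel ratio per probe and array. The scale was read from the values, and the sources used here give no scanner, background correction or normalization. The value 16.61 was taken as a placeholder and, like blanks, as missing. Arrays with the extract in channel 2 were turned, and the 2 arrays of an extract were averaged. Probes with values on at least 24 of 30 arrays and on 1 array of every extract were tested with limma 3.58.1 (lmFit, eBayes, Benjamini-Hochberg adjusted p under 0.05) in R 4.3.3: the 15 means against 0, number 579 against the others, progression against EMT extracts, and an F-test over single arrays with a dye term per probe. The fits were tested on simulated data. Promoters were aligned with Biopython 1.88.

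Members and lists were chosen with earlier results of these data known. All member probes are described. From each list at most 4 genes a direction with the largest mean among those passing, at most 3 with the largest SD among those past the F-test, and the 8 genes most like Saa1, Lrg1 and Hp were open to naming, and Myc as the gene that fixes the side. Saa4, Saa-ps, Fgfr2, Csn2, Csn3 and others named as not passing were added after their values were seen. A gene with several probes is represented by the probe with values on most arrays. Alternatives were array medians subtracted, 1 orientation only, probes on all arrays, no dye term, code numbers averaged, 595-A counted with EMT and extracts left out.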

Additional observations from a re-analysis of the deposited data

How the results depend on the processing

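The 2 arrays of each extract were treated as a pair, but the labels give no pairing between extracts of different groups. The count of probes past the threshold against the reference was 6088, and 4047 of the 6801 probes with values on all 30 arrays. Of the called probes 64.3% were on the Myc side, 54.5% with array medians subtracted, 41.3% with the extract in channel 1 only and 76.1% in channel 2 only. Differences between extracts were called for 867 probes, 393 without the dye term and 472 without 546-A and 548-A. The 1 probe called between progression and EMT extracts became 0 with array medians subtracted, in channel 1 only, in channel 2 only, on the probes with all 30 arrays and without 546-A and 548-A, and 3 to 4 when 1 progression extract was left out, where the lone extract left is assumed to vary like the EMT extracts. Leaving out 1 of the 579 extracts gave 0 to 0 calls.

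Orm1 turned to -0.27 with the extract in channel 1 only, and lost its call with array medians subtracted (0.59) and with code numbers averaged (0.65). Without the dye term Saa3, at an SD of 1.83, did not pass the F-test. Saa2 passed against the reference in channel 1 only (-1.20), and Hp in channel 2 only (1.03) and without 546-A and 548-A (0.98). Without 546-A and 548-A, r was 0.541 for Saa1 with Saa2 and 0.597 for Saa2 with Hp. Without 548-A, 579-D and 597-B, an alternative chosen after seeing the data like those without the 579 extracts and without the 4 extracts highest in Saa1, r was 0.330 for Saa1 with Saa2, 0.721 for Saa1 with Hp, 0.361 for Saa2 with Hp and 0.859 for Saa2 with Cp. The cause was not tested. Channel intensities were not used here, so signal over background is unknown, and the F-test is approximate where arrays are missing.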

Other observations

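Krt19, a keratin gene of simple and luminal epithelium, and Nudt9 each gave a Pearson r of 0.941 with Saa2 over the 15 extracts, below Cp at 0.965. Krt19 passed the F-test (limma adjusted p = 0.00198), whereas Nudt9 did not (limma adjusted p = 0.0760). These genes were looked up after the Saa2 pattern had been seen.

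The 7 genes in the 579 extracts and in the others gave 14 groups of values. Each was examined for an extract far from the rest by Dixon's test at the 5% level, and 0 had one. With few extracts this test can miss a far value. Saa2 in 579-D, at -4.41 against -1.09 to 1.13 in the other 579 extracts, was not flagged.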
